A study of Mus musculus with 45 samples.

Results

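The transcripts of 10 glutathione S-transferase (GST) genes were followed in mouse liver over 8 doses of TCDD, the dioxin 2,3,7,8-tetrachlorodibenzo-*p*-dioxin. The genes were taken by name and class, with no threshold on their values: *Gsta1*, *Gsta2*, *Gsta3* and *Gsta4* of the alpha class, *Gstm1*, *Gstm2*, *Gstm3* and *Gstm4* of the mu class, *Gstp1* of the pi class and *Gstt1* of the theta class. They are 10 of 39179 genes in the count files, and all 10 were among the 17464 genes detected with more than 4 reads in any mouse. Female C57BL/6 mice received TCDD at 30, 10, 3, 1, 0.3, 0.1, 0.03 or 0.01 µg/kg, or the sesame oil vehicle alone, by gavage every 4 days for 28 days, with 5 mice in each of the 9 groups and dosing begun on postnatal day 28. The submitters' treatment note also calls the mice ovariectomized and the gavage daily, while the methods of the study mention no ovariectomy and the same note gives the 4-day schedule. Whole liver was homogenised, so each library averages over all liver cell types, and fewer cells of a type cannot be told apart from less RNA per cell. Reads on genes ranged from 11.77 M to 56.51 M per mouse with a median of 17.23 M.

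GSTs join glutathione, a cysteine-containing tripeptide, to reactive electrophiles, and the conjugates leave the cell through export pumps. Alpha- and mu-class enzymes are abundant in hepatocytes, the pi-class enzyme is best known for its changes in liver injury and cancer, and the theta-class enzyme conjugates small halogenated molecules. TCDD binds the aryl hydrocarbon receptor (AhR), which with its partner ARNT binds DNA at a short core motif, GCGTG. Several GST genes are also known targets of Nrf2, a transcription factor active under electrophile stress that binds the antioxidant response element, TGACNNNGC.

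The start-site sequences of the genes with higher transcript levels at 30 µg/kg, and of *Gsta2*, the closest relative of *Gsta1*, are shown because the receptor motif or its absence can be read directly in them. They are from RefSeq on GRCm38.p6 and run 5′ to 3′ on the strand of the gene, from 140 bases before the annotated start to 30 bases after it. Capitals mark GCGTG and, in *Gstp1*, TGAGTCA, the binding motif of AP-1 transcription factors, which was added after its sequence was seen. The stretches are chr19:4037883-4038052 on the minus strand for *Gstp1*, chr9:78230529-78230698 on the plus strand for *Gsta1*, chr9:78347116-78347285 on the minus strand for *Gsta2*, chr3:107986391-107986560 on the minus strand for *Gstm2* and chr3:107969145-107969314 on the minus strand for *Gstm3*.
Gstp1: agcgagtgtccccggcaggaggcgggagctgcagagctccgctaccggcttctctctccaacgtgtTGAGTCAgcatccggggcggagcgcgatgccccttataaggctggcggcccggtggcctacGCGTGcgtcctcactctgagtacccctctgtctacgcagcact
Gsta1: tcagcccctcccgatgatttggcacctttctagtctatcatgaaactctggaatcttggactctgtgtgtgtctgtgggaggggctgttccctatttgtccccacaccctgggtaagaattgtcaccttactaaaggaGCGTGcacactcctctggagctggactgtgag
Gsta2: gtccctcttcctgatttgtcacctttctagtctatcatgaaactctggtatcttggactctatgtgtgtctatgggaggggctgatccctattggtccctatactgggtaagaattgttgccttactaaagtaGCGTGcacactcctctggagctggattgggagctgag
Gstm2: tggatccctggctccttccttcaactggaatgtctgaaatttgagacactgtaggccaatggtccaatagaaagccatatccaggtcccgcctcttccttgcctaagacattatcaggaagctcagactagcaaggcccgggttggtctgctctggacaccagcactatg
Gstm3: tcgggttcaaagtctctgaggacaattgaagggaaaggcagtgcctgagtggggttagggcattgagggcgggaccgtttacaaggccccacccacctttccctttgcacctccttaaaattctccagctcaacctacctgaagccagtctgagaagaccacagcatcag

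Motifs were searched on both strands in the 300 bases from 250 before to 50 after each RefSeq start. For several genes, among them *Gstp1*, *Gsta1*, *Gsta2*, *Gstm3* and *Gstt1*, that start lies inside the gene interval given below and not at its upstream end. Of the 10 genes, 9 had an entry in the promoter table (*Gsta4* had none). GCGTG began 13 bases before the start of *Gstp1*, 2 bases before that of *Gsta1*, 7 bases before that of *Gsta2*, and 76 or 231 bases before the 2 annotated starts of *Gstm1*. It was not in the windows of *Gsta3*, *Gstm2*, *Gstm3*, *Gstm4* or *Gstt1*. This short motif was in 32.4% of all 32851 start-site windows. TGACNNNGC was found in *Gsta3*, 121 bases before the start, against 12.4% of all windows, and TGAGTCA in *Gstp1*, 74 bases before the start, against 5.2%. *Gsta1* and *Gsta2* share a run of 29 identical bases in these windows, beginning 118 bases before the start of *Gsta1*. Only these letter patterns were searched, so other forms of the elements were not counted. A motif match is a description of letters and not of binding.

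The family did not move as a block. At 30 µg/kg, 4 of the 10 genes rose, all by at least 2-fold (*Gsta1*, *Gstm2*, *Gstm3* and *Gstp1*), 3 fell, none of them 2-fold (*Gsta3*, *Gstm1* and *Gstt1*), and 3 were not called (*Gsta2*, *Gsta4* and *Gstm4*). Scaling by library size without TMM left *Gsta3* and *Gstm1* uncalled and *Gsta4* called higher. A gene was called where edgeR's quasi-likelihood test over all detected genes gave it an adjusted p-value below 0.05 against the vehicle. At this dose 29.6% of all genes tested were called, 15.5% higher and 14.1% lower, 8.03% at least 2-fold higher and 3.42% at least 2-fold lower. The median log2 fold change of the 10 genes was -0.03, beside 0.02 for all genes.

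The calls accumulated with dose, and each dose was compared with the same 5 vehicle mice. None of the 10 was called at 0.01, 0.03 or 0.1 µg/kg, where edgeR called 0%, 0.0573% and 0.0229% of all genes. At an unadjusted p-value under 0.05 the numbers were 1, 4 and 3 of the 10. The share of all genes at that unadjusted threshold was not counted, so these numbers have no background to be read against. DESeq2 called 0 of the 10 at each of these doses, and 35, 78 and 5 of all 17464 genes. *Gstp1* was the 1 gene called, and higher, for the 0.3 µg/kg group, where 0.464% of all genes were called and 0.321% higher, and for the 1 µg/kg group, where 1.76% were called and 1.24% higher. *Gstt1* joined it as lower from 3 µg/kg, where 7.54% of all genes were called, 4.34% higher and 3.2% lower. *Gsta1*, *Gstm2* and *Gstm3* joined as higher from 10 µg/kg, where 15.9% were called, 8.47% higher and 7.47% lower. A single test for any difference among the 9 groups was passed by *Gsta1*, *Gstm2*, *Gstm3*, *Gstp1* and *Gstt1*, 5 of the 10, and by 28.8% of all genes. *Gsta3* and *Gstm1*, called at 30 µg/kg, did not pass it, with adjusted p-values of 0.0647 and 0.113 in the edgeR test.

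**Figure D1:**
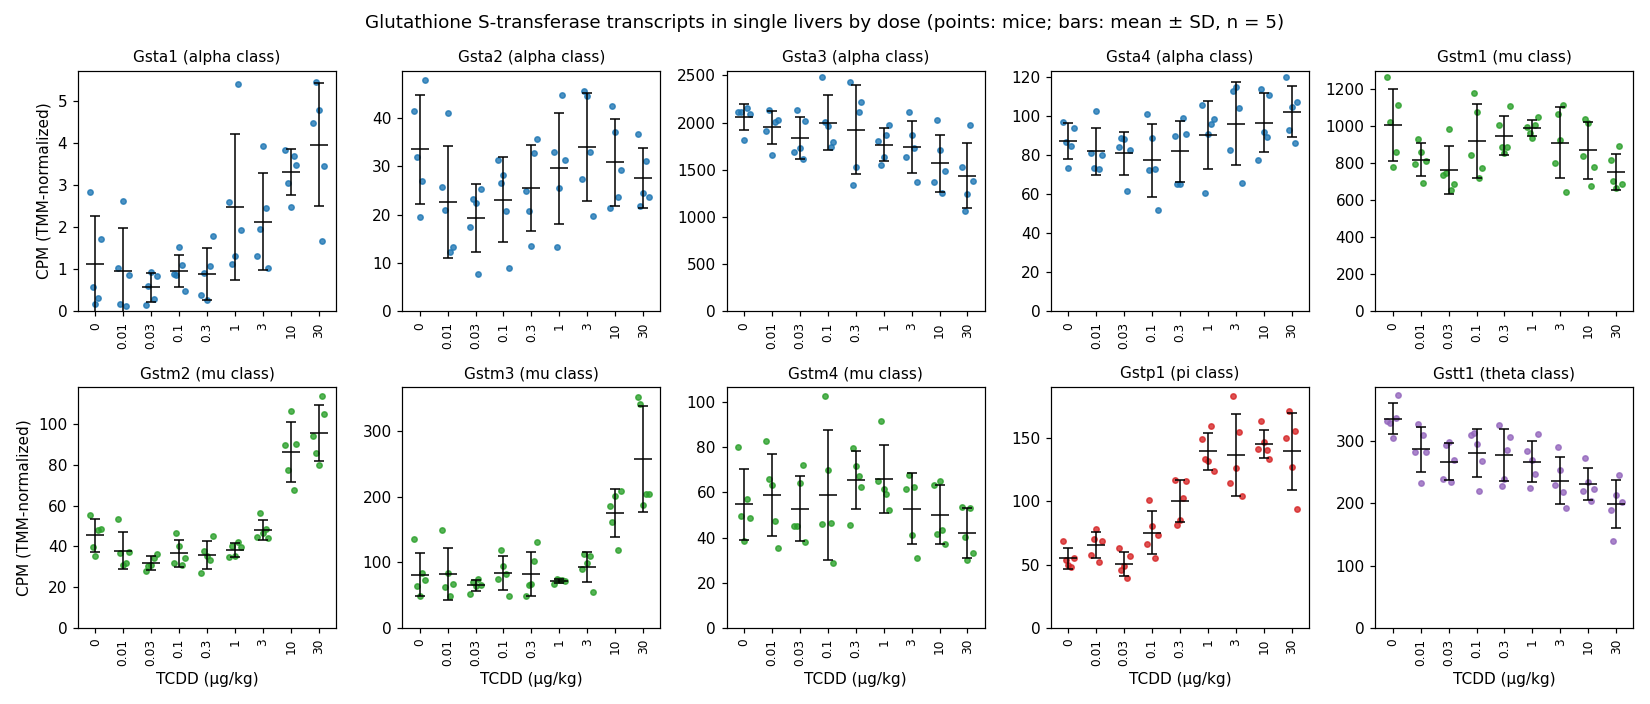
TMM-normalized CPM of each of the 10 genes in every liver, by TCDD dose in µg/kg. Points are mice and bars are mean ± SD of 5. *Gstp1* climbs from 0.3 µg/kg and has similar means from 1 µg/kg. *Gstm2* and *Gstm3* stay low up to 3 µg/kg and are high at 10 and 30 µg/kg, and *Gstt1* declines.

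*Gstp1*, at chr19:4035407-4037985 on GRCm38 with 5 merged exons, encodes the pi-class enzyme and was called at a lower dose than any other of the 10. Levels are given as CPM, read counts scaled to a common library size. In the vehicle mice *Gstp1* had 47.8, 49.3, 53.5, 55.5 and 68.4 CPM. At 0.3 µg/kg the mice had 81.1, 85.3, 102.7, 116 and 117 CPM, and at 1 µg/kg 124, 131.6, 133, 149 and 159 CPM. Every mouse at both doses was above every vehicle mouse, which held for 0.933% and 2.74% of all genes. The rise was 0.87 ± 0.16 on the log2 scale (SE, n = 5 per group; edgeR adjusted p = 0.0023) for the 0.3 µg/kg group and 1.35 ± 0.16 (edgeR adjusted p = 1.26e-07) for the 1 µg/kg group.

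Above 1 µg/kg the mean of *Gstp1* stayed close to its value there. It was 139 CPM in the 1 µg/kg group. In the groups given 3, 10 and 30 µg/kg it was 137 ± 32, 145 ± 11 and 140 ± 31 CPM (SD, n = 5). No comparison of neighbouring doses was called for *Gstp1* in edgeR. This held also for the steps up to 1 µg/kg, over which its level rose, so the step test cannot show a levelling off. At 30 µg/kg the mice had 93.5, 127, 149.7, 156 and 172 CPM, again all above the vehicle mice (10.3% of all genes), with a log2 fold change of 1.35 ± 0.16 (edgeR adjusted p = 9.2e-09), or 2.54-fold. The summed level of 5 cholangiocyte markers was 62.8 ± 9.7 CPM in vehicle mice, against 54.7 ± 7.1 and 58.8 ± 6.8 CPM in mice given 1 and 30 µg/kg, and none of the 5 was called at 30 µg/kg. The 5 macrophage markers summed to 136 ± 24 CPM in vehicle mice and 208 ± 67 at 1 µg/kg, and the part of these cells in the *Gstp1* values was not tested.

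*Gstm2*, at chr3:107981702-107986453 with 7 merged exons, and *Gstm3*, at chr3:107963696-107969283 with 8, lie in the mu-class cluster, and both were called from 10 µg/kg. *Gstm2* had 35.1, 39.9, 48.1, 48.4 and 55.5 CPM in the vehicle mice. At 3 µg/kg its mice had 44.1, 44.5, 46.4, 48.3 and 56.2 CPM, within or next to the vehicle range. At 10 µg/kg they had 67.5, 77.6, 89.8, 90.4 and 106.6 CPM, and those given 30 µg/kg had 80.1, 85.7, 94.1, 104.8 and 114 CPM. All mice at 10 and at 30 µg/kg were above the vehicle mice, as for 8.1% of all genes in the 10 µg/kg group. These rises were 0.93 ± 0.14 (edgeR adjusted p = 4.23e-06) and 1.08 ± 0.14 (edgeR adjusted p = 1.04e-07) on the log2 scale.

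Among all comparisons of a dose with the next lower one, *Gstm2* at 10 against 3 µg/kg was the 1 called in edgeR for the 10 genes, with a log2 difference of 0.85 ± 0.14 (adjusted p = 0.000253). That step was called for 0.784% of all genes. Below 3 µg/kg the fitted *Gstm2* values were under those of the vehicle, by most at 0.03 µg/kg (log2 fold change -0.51 ± 0.14), where the edgeR adjusted p-value was 0.15.

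*Gstm3* had 48.6, 64.3, 73.5, 83.3 and 134.9 CPM in the vehicle mice, so 1 control mouse reached the range seen at 10 µg/kg. The mice at 10 µg/kg had 118.9, 161, 186, 202 and 208 CPM, and those at 30 µg/kg 188, 204, 205, 341 and 352 CPM. At 30 µg/kg the group cleared all vehicle mice, and 2 of the 5 livers stood well above the other three. *Gstm3* rose by 1.12 ± 0.27 (edgeR adjusted p = 0.00254) in the 10 µg/kg group and by 1.67 ± 0.27 (edgeR adjusted p = 5.17e-06) in the 30 µg/kg group on the log2 scale, the latter 3.19-fold. The step from 3 to 10 µg/kg was 0.91 ± 0.26 on the log2 scale and was not called in edgeR (adjusted p = 0.11), while DESeq2 called it.

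The other mu-class genes went down or did not pass. *Gstm1*, at chr3:108012255-108017973 with 9 merged exons, encodes the major mu-class enzyme of mouse liver. Its vehicle mice had 778, 860, 1019, 1110 and 1265 CPM and its 30 µg/kg mice 667, 688, 704, 814 and 891 CPM, so the groups overlapped. Its log2 fold change was -0.42 ± 0.14 (edgeR adjusted p = 0.0239). This call was lost without vehicle replicate 1 (log2 fold change -0.32, adjusted p = 0.103), vehicle replicate 5, 30 µg/kg replicate 2 or 30 µg/kg replicate 3, under library-size scaling without TMM (-0.21, adjusted p = 0.277), and with adjustment over all doses together (adjusted p = 0.0794, all edgeR).

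*Gstm4*, at chr3:108040408-108044894 with 8 merged exons, ranged over mice from 38.3 to 80.2 CPM in the vehicle group and from 30.2 to 53.6 CPM at 30 µg/kg. The 95% interval of its log2 fold change at 30 µg/kg ran from -0.91 to 0.14, which leaves room for a fall of nearly 2-fold.

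Of the alpha class, *Gsta1* rose, from very few reads. It lies at chr9:78230656-78242684 with 7 merged exons. The vehicle mice had 0.185, 0.309, 0.572, 1.72 and 2.83 CPM, on 3 to 40 reads per mouse, and the 30 µg/kg mice 1.67, 3.45, 4.46, 4.77 and 5.44 CPM. The lowest liver at 30 µg/kg was below the highest 2 vehicle livers, so the groups overlapped. On the log2 scale *Gsta1* rose by 1.57 ± 0.54 (edgeR adjusted p = 0.039) in the 10 µg/kg group and by 1.83 ± 0.54 (edgeR adjusted p = 0.00839), or 3.56-fold, in the 30 µg/kg group.

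The *Gsta1* call at 10 µg/kg was lost without vehicle replicate 2, 3 or 4 or without 10 µg/kg replicate 1, 4 or 5, with a log2 fold change down to 1.30 and an edgeR adjusted p-value up to 0.114. It was also lost with adjustment over all genes and doses together (edgeR adjusted p = 0.0778). At 30 µg/kg no single mouse ended it. *Gsta1* is also the gene whose reads are hardest to place: of its 905 transcript windows of 50 bases, the read length, 86 (9.5%) occur in no other gene's transcripts, 685 occur in *Gm3776*, 422 in *Gsta2* and 283 in *Gm10639*. Reads with more than 1 alignment were not counted, so its CPM comes from a small share of its transcript. *Gm10639* itself had 0 to 9 reads per mouse. The reads of *Gm3776*, which shares the most windows with *Gsta1*, are not given here.

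*Gsta2*, at chr9:78331018-78355788 with 9 merged exons, shares the receptor motif near its RefSeq start with *Gsta1* but was not called at any dose. The stretch around that start, chr9:78347116-78347285 on the minus strand, lies inside this gene interval and not at its upstream end. Its vehicle mice had 19.5, 26.9, 31.9, 41.4 and 47.7 CPM and its 30 µg/kg mice 21.8, 23.6, 24.5, 31.1 and 36.6 CPM. The groups overlapped, and the 95% interval of the log2 fold change ran from -0.95 to 0.38. *Gsta4*, at chr9:78182774-78209349 with 8 merged exons, conjugates 4-hydroxynonenal, a product of lipid peroxidation. It ranged from 73.2 to 97.0 CPM in vehicle mice and from 86.1 to 119.7 CPM at 30 µg/kg, with a log2 fold change of 0.23 ± 0.16 that was not called (edgeR adjusted p = 0.292; 95% interval -0.09 to 0.55). Without TMM it was called higher (log2 fold change 0.45, edgeR adjusted p = 0.0222).

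*Gsta3*, at chr1:21240589-21265661 with 9 merged exons, encodes the alpha-class enzyme known for conjugating the epoxide of aflatoxin B1, and it drew more reads than any other of the 10 genes in the vehicle mice. These had 1817, 2089, 2118, 2118 and 2151 CPM, and the 30 µg/kg mice had 1059, 1248, 1382, 1528 and 1975 CPM. Of the 30 µg/kg livers, 4 were below all vehicle livers and 1 was within their range. For *Gsta3* the log2 fold change was -0.52 ± 0.15 (edgeR adjusted p = 0.00613), a fall of 1.43-fold. At 10 µg/kg the value was -0.39 ± 0.15 (edgeR adjusted p = 0.0605). It was called lower there by DESeq2 (adjusted p = 0.0412), by edgeR on the vehicle and 10 µg/kg mice alone (adjusted p = 0.0336), and by edgeR without vehicle replicate 3 or 10 µg/kg replicate 2. Without TMM the 30 µg/kg value was -0.31 (edgeR adjusted p = 0.0654).

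*Gstt1*, at chr10:75783813-75798584 with 6 merged exons, had the largest fall of the 10 on the log2 scale. The vehicle mice had 306, 329, 332, 337 and 375 CPM. The 3 µg/kg mice had 192, 218, 229, 253 and 291 CPM, the 10 µg/kg mice 203, 219.8, 224, 235 and 274 CPM, and the 30 µg/kg mice 140.2, 190.2, 202, 214 and 246 CPM. At each of these doses all mice were below all vehicle mice, as for 3.36%, 6.13% and 9.57% of all genes. In order of dose the log2 fold changes were -0.50 ± 0.13 (edgeR adjusted p = 0.00833), -0.54 ± 0.13 (adjusted p = 0.00198) and -0.76 ± 0.13 (adjusted p = 8.9e-06). *Gstt1* was also below all vehicle mice at 0.03 µg/kg, at 235 to 298 CPM, as were 1.34% of all genes there, but was not called (edgeR adjusted p = 0.291).

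**Figure D2:**
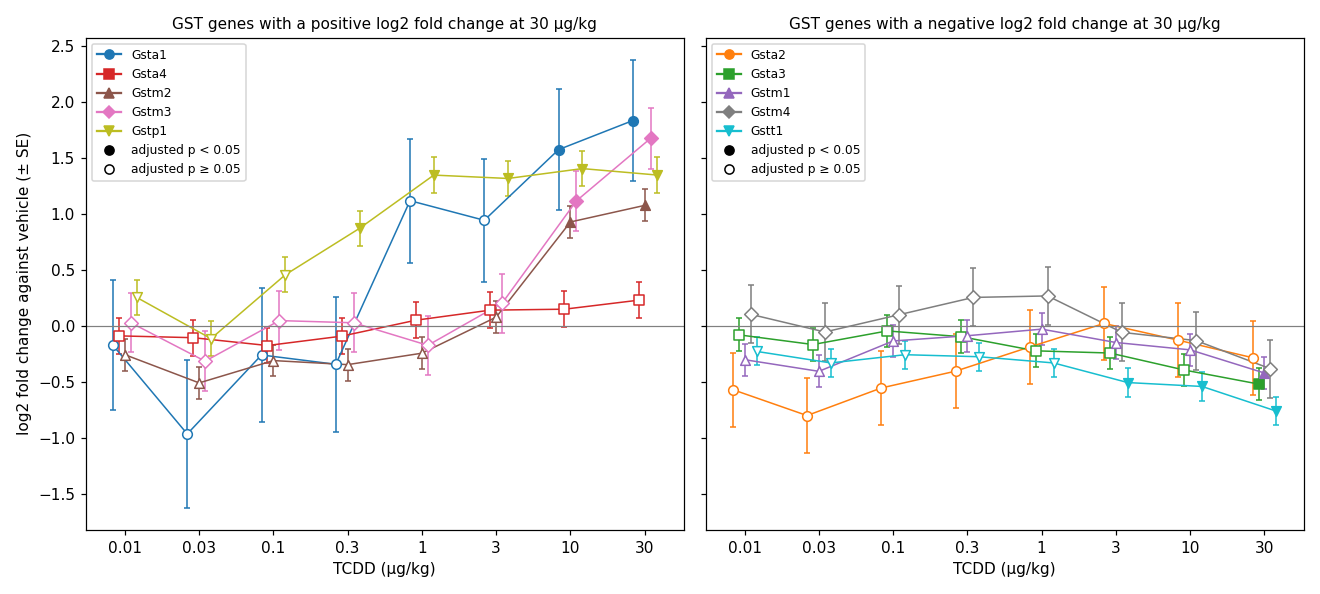
The log2 fold change of each gene against vehicle (vertical axis, bars are SE) by TCDD dose in µg/kg. Filled symbols have an edgeR adjusted p-value under 0.05. *Gstp1* is called from 0.3 µg/kg and *Gsta1*, *Gstm2* and *Gstm3* from 10 µg/kg in the left panel, and *Gstt1* from 3 µg/kg and *Gsta3* and *Gstm1* at 30 µg/kg in the right.

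At 0.03 µg/kg all 10 genes had a fitted value below the vehicle, with a median log2 fold change of -0.32 beside 0.01 for all genes. None was called there, and the 10 values share the same 10 livers, so they are not independent of each other.

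The 3 genes called lower at 30 µg/kg were those with the highest levels per length. Per kb of exon, in the vehicle mice, *Gstm1* led at 683 ± 132 CPM per kb, followed by *Gsta3* at 474 ± 32 and *Gstt1* at 219.7 ± 16.4, and each of these 3 was apart from the next over all mice. *Gsta4* (68.8), *Gstm3* (61.7), *Gstp1* (35.5), *Gstm4* (32.1), *Gsta2* (28.4) and *Gstm2* (27.1) followed with overlapping neighbours, and *Gsta1* was last at 1.18 CPM per kb. At 30 µg/kg *Gstm1* (511 ± 65) and *Gsta3* (331 ± 80) still led, followed by *Gstm3* at 197 ± 62, *Gstt1* at 129.8 ± 25.2 and *Gstp1* at 90.1 ± 19.5 CPM per kb. The ranges of *Gstm3* and *Gstt1* overlapped. The lengths are merged exons, 4344 bases for *Gsta3* and 1473 for *Gstm1*. Which transcripts of a gene were present was not tested, so the order of *Gstm1* and *Gsta3* rests on these lengths. The summed level per kb rests on them too. In CPM, before scaling by length, *Gsta3* was above *Gstm1* in the vehicle mice.

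Because reads in shared sequence are lost, these levels are lower bounds for some genes. Windows of 50 bases found in no other gene made up 50.2% of *Gsta2*, 66.3% of *Gstp1*, 71.2% of *Gstm3* and 81.1% of *Gstm1*, and 94.3% or more of the remaining genes apart from *Gsta1*. *Gstp1* shares 586 of its windows with *Gstp2*. No exon of the 10 overlaps another gene. The summed level of all 10 genes went from 3758 ± 382 CPM in vehicle mice to 3058 ± 477 at 30 µg/kg, and per kb from 1632 ± 215 to 1449 ± 179 (SD, n = 5). The ratio of *Gstp1* to *Gstt1* CPM went from 0.164 ± 0.025 to 0.74 ± 0.29.

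**Figure D3:**
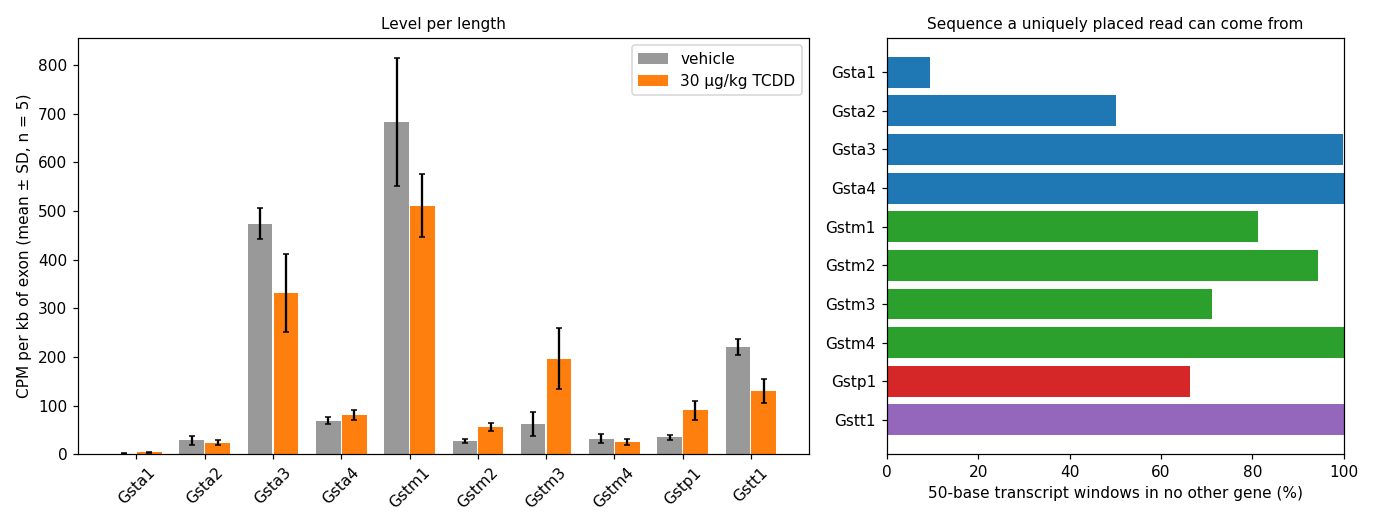
Left, mean level per kb of exon with SD (n = 5) in vehicle mice and at 30 µg/kg TCDD. Right, the percent of each gene's 50-base transcript windows found in no other gene. *Gstm1*, *Gsta3* and *Gstt1* are the highest bars in vehicle mice and are lower at 30 µg/kg, and *Gsta1* has 9.5% of windows of its own.

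Transcripts with the most similar pattern over the 45 mice were sought for the 3 genes with the largest changes. *Gstp1* was most like *Tmem86b* (Pearson r of log2 CPM 0.90), *Htatip2* (0.90) and *Fbxw9* (0.90) among 13608 genes. *Gstm3* was most like *Gm6665* (0.91), *Gstm2* (0.89) and *Adgrg1* (0.88), of which *Gm6665* shares 39 windows of 50 bases with *Gstm2* and 11 with *Gstm1*. *Gsta1* was most like *Flrt2* (0.79), *Aldh3b1* (0.77) and *Selenbp1* (0.77). The points share dose groups and library depth.

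Genes around the family give the context of the same livers. Of 52 further genes of glutathione metabolism, 51 were detected (*Gstt4* was not), and 11 were called higher and 15 lower at 30 µg/kg, again beside 15.5% and 14.1% of all genes. Their median log2 fold change was 0.04. Calls in this list began at 0.3 µg/kg with 1 lower, where 0.464% of all genes were called in either direction. They reached 6 higher and 7 lower at 3 µg/kg, beside 4.34% and 3.2% of all genes. Genes of the list named by a count were chosen after their values were seen, apart from the 5 with the largest changes, the other GST genes, *Gclc* and *Gclm*.

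The other 16 detected GST genes were mostly lower or not called at 30 µg/kg: 8 were lower, 1 was higher and 7 were not called. *Gstm6*, a further mu-class gene, fell from 107 ± 15 to 37.9 ± 11.0 CPM (log2 fold change -1.50 ± 0.16, edgeR adjusted p = 1.19e-09). *Gstm5*, *Gstm7*, *Gstk1*, *Gstp3* and the microsomal *Mgst1* and *Mgst3* were also called lower, with log2 fold changes from -0.74 to -0.43. *Gsto2* was called lower (-1.46 ± 0.46, edgeR adjusted p = 0.0144) on 2 to 9 reads per vehicle mouse and 1 to 4 per mouse at 30 µg/kg. *Gstt2*, *Gstt3*, *Gsto1*, *Gstz1*, *Gstcd*, *Hpgds* and *Mgst2* were not called.

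The pi-class genes split. *Gstp2* was called higher at 30 µg/kg (log2 fold change 1.70 ± 0.54, edgeR adjusted p = 0.0141). It had 1 to 10 reads per vehicle mouse and 7 to 29 per mouse at 30 µg/kg. Of its windows 45.7% are its own, and 586 are shared with *Gstp1*. Whether reads of *Gstp1* entered the *Gstp2* count was not tested. *Gstp3*, with no windows shared, was lower from 0.3 µg/kg (-0.76 ± 0.18, edgeR adjusted p = 0.0317), the dose at which *Gstp1* was first called higher. It went from 21.1 ± 3.9 CPM in vehicle mice to 12.4 ± 2.9 and 13.4 ± 3.1 CPM in mice given 0.3 and 30 µg/kg.

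Of the 6 genes of glutathione synthesis and its cystine supply, 2 rose at 30 µg/kg, *Gss* (log2 fold change 0.74 ± 0.13), the second enzyme of synthesis, and *Slc7a11*, the cystine importer. The *Slc7a11* call rests on 0 or 1 read per vehicle mouse and 1 to 5 reads per mouse at 30 µg/kg (edgeR adjusted p = 0.0281), so no fold is given. The subunits of the rate-limiting enzyme were not called: *Gclc* had 205 ± 6 CPM in vehicle mice and 237 ± 48 at 30 µg/kg (log2 fold change 0.21 ± 0.22), and *Gclm* 250.4 ± 19.2 and 227 ± 20 (-0.14 ± 0.08). Of 9 peroxidases and related genes, 3 rose and 3 fell. *Gpx2*, a peroxidase best known from the gut, had 0 or 1 read in each vehicle mouse and 35 to 86 reads per mouse at 30 µg/kg (edgeR adjusted p = 4.47e-11). *Gpx1* and *Gpx3* rose by 0.26 and 0.72 on the log2 scale, and *Prdx6*, *Glrx* and *Glrx2* fell by 0.64, 0.73 and 0.54.

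Among 12 recycling and breakdown genes 2 rose and 3 fell, led by the dipeptidase gene *Dpep1* at 0.674 ± 0.210 CPM in vehicle mice and 2.62 ± 0.27 at 30 µg/kg (log2 fold change 1.96 ± 0.31, edgeR adjusted p = 4.31e-06). *Oplah* rose by 0.37 on the log2 scale, and *Ggt6*, *Anpep* and *Chac2* fell by 1.09, 0.92 and 0.38. The glyoxalase gene *Glo1* fell by 0.97 and *Hagh* was not called. Of the 6 pumps that can export conjugates, *Abcc4* (log2 fold change 2.01 ± 0.35), *Abcc1* (0.91 ± 0.28) and *Abcc5* (0.71 ± 0.15) rose, and *Abcc2*, *Abcc3* and *Abcg2* were not called at this dose. *Abcc3* was called higher in edgeR at the middle doses, by 0.67 ± 0.12 on the log2 scale at 1 µg/kg (adjusted p = 0.00059), 0.50 at 3 µg/kg and 0.41 at 10 µg/kg, against 0.04 at 30 µg/kg. *Abcg2* was called higher at 3 µg/kg (0.54 ± 0.13, edgeR adjusted p = 0.00537), and *Abcc2* at no dose.

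**Figure D4:**
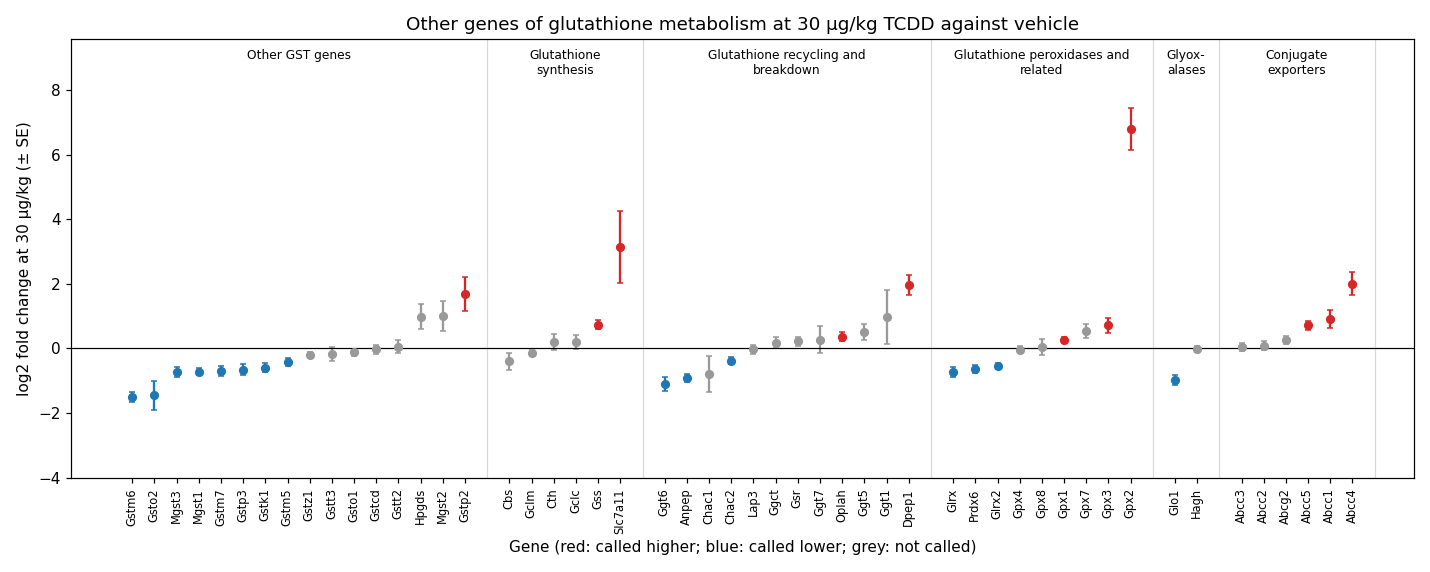
The log2 fold change at 30 µg/kg with SE for 51 other genes of glutathione metabolism, grouped by role. Red genes were called higher and blue genes lower by edgeR. The other GST genes hold 8 blue and 1 red, the exporters 3 red and no blue.

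Of the receptor and regulator genes, the AhR targets *Cyp1a2* (log2 fold change 3.97 ± 0.15) and *Tiparp* (3.63 ± 0.18) rose at 30 µg/kg, and *Cyp1a1* rose from 7.5 ± 6.3 to 7627 ± 1186 CPM. Of the Nrf2 genes *Nqo1* (2.01 ± 0.19), *Nfe2l2* itself (1.24 ± 0.09), *Hmox1* (1.01 ± 0.29) and *Srxn1* (0.88 ± 0.13) rose, and *Keap1* and *Txnrd1* were not called. The study also counts *Nqo1*, like *Cyp1a1*, among the genes that respond to AhR. *Cyp2b10* and *Cyp3a11*, targets of the receptors CAR and PXR, were not called either.

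Several markers of non-parenchymal cells were higher in the same livers. At 30 µg/kg, 4 of 5 endothelial, 3 of 5 stellate and fibroblast, 2 of 5 macrophage and 2 of 5 lymphocyte markers were called higher, and 3 of 5 hepatocyte markers lower. The summed levels went from 109 ± 12 to 166 ± 30 CPM for endothelial, from 261 ± 39 to 426 ± 60 for stellate, from 136 ± 24 to 223 ± 78 for macrophage and from 131700 to 116500 CPM for hepatocyte markers. The lymphocyte markers summed to 1.77 CPM in vehicle mice and 3.97 at 30 µg/kg. The part of these shifts in the GST values was not tested.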

How the data were processed

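Liver RNA of 45 mice was sequenced as single 50-base reads, and the authors deposited raw read counts per Ensembl gene for each mouse. Per the labels and the methods of the study, reads were checked with FastQC 0.11.2, aligned to GRCm38 with TopHat 1.4.1, handled with SAMtools 0.1.19 and counted with HTSeq 0.6.1, without reads that aligned to more than 1 place. Counts carry no normalization. Genes with near-identical copies therefore lose reads, and values resting on few reads are the least precise. Of 39179 gene IDs, 37607 matched a symbol.

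Genes with more than 4 reads in any mouse (17464) were tested with edgeR 4.0.16 in R 4.3.3: TMM normalization, 1 coefficient per group, all 45 mice in 1 fit, the quasi-likelihood test and Benjamini-Hochberg adjustment over all genes within each dose. The standard error is the absolute log2 fold change divided by the square root of F. The semi-parametric normalization and empirical Bayes test of the study could not be repeated. Levels are TMM-normalized CPM, and levels per kb use merged exons of GENCODE M21, which is later than the annotation the authors counted on. On simulated data with 2-fold changes at 30 µg/kg among 17464 genes, 96% of 100 higher and 84% of 100 lower genes were recovered, with 14 false calls. The changed genes were drawn only from genes with many reads, and every gene had the same simulated spread. The rates therefore do not cover genes with few reads, such as *Gsta1*. Groups came from the labels. Replicate numbers follow accession order and the libraries' sequencing pools are not given in the labels, so pools were not compared.

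All 10 members were named, with the 5 largest called changes of the pathway list at a mean of 10 reads or more, *Gclc*, *Gclm*, the other GST genes and the regulators. The members and lists were chosen with earlier results of these data known. Alternatives were DESeq2 1.42.0, other scalings, filters, adjustments and samples, and each mouse left out in turn. The values for any difference among groups were also recomputed, as alternatives chosen after seeing the data.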

Additional observations from a re-analysis of the deposited data

Results flagged for a closer look

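Single livers that stood apart from the other 4 of their group by Dixon's criterion were looked for in the 90 sets of 10 genes by 9 groups. Of these sets, 5 met it, where chance gives about 1 in 20, or 4.5. *Gsta3* was 1817 CPM in vehicle replicate 3, below the other vehicle livers at 2089 to 2151 CPM. *Gsta4* was 102.4 CPM in replicate 3 at 0.01 µg/kg, above the others at 72.9 to 81.1 CPM, and 61.8 CPM in replicate 4 at 0.03 µg/kg, below the others at 82.6 to 88.6 CPM. *Gstm1* was 983 CPM in replicate 3 at 0.03 µg/kg, above the others at 653 to 748 CPM. *Gstm2* was 53.5 CPM in replicate 1 at 0.01 µg/kg, above the others at 30.82 to 37.04 CPM.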

How the results depend on the processing

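No paired analysis was possible because the labels carry no replicate numbers. No called log2 fold change changed sign under the alternatives run. Of the recomputed counts and levels, 301 stayed within 1.5 times the main count or within the spread of the main level and 9 moved. Counts were compared as totals, so a count could stay while calls of single genes changed. The 301 include counts of 0 at low doses that stayed 0. With adjustment over all genes and doses together, 1 of the 10 genes, *Gstm2*, was called at 0.03 µg/kg, as lower. None was called there within the dose. This adjustment called 237 of all 17464 genes at 0.03 µg/kg, against 10 within the dose. With DESeq2, 2 steps from 3 to 10 µg/kg were called in place of 1. DESeq2 also called 1 pathway gene at 0.03 µg/kg, where it called 78 of all genes. Without TMM, 0 pathway genes were called at 0.3 µg/kg in place of 1. This scaling moved the median log2 fold change of all genes at 30 µg/kg from 0.02 to 0.23, and changed the calls of *Gsta3*, *Gsta4* and *Gstm1* given above. Scaled per kb of windows found in no other gene instead of per kb of exon, the vehicle levels were 13.1 CPM for *Gsta1*, 56.9 for *Gsta2*, 816 for *Gstm1*, 90.02 for *Gstm3* and 47.7 for *Gstp1*. Leaving out single mice left 5 or 6 of the 10 genes past the test of any difference among groups, and ended or gained calls of single genes for *Gsta1* at 10 µg/kg, *Gsta3* at 10 µg/kg and *Gstm1* at 30 µg/kg. Depth limits *Gsta1* most of the 10 genes, with as few as 3 reads in a vehicle mouse, and in the pathway list *Slc7a11*, *Gsto2* and *Gstp2* were called on means of 1.6, 4.3 and 11 reads over vehicle and 30 µg/kg mice.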

Other observations

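Livers of 1 dose group that were high in 1 GST gene tended to be high in others. Over the 45 mice, with each group's mean removed, 43 of 45 pairs of the 10 genes had a positive correlation of log2 CPM, with a median r of 0.40. The closest pairs were *Gsta2* with *Gsta4* (r = 0.84) and *Gsta3* with *Gstt1* (r = 0.83), and without the 2 mice farthest out they were 0.80 and 0.81. The lowest was *Gsta1* with *Gstt1* (r = -0.04). These values are a description over libraries that share their scaling. Pairs of other genes were not computed, so the values have no background and cannot be read as a trait of the family.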
